A study of Mus musculus with 15 samples.

Results

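Zfp36, Zfp36l1, Zfp36l2, Zc3h12a and Zc3h12c encode zinc finger proteins that bind messenger RNA and shorten its life. Each of the 5 genes was read by 1 probe, found by matching the transcript accession that the array gives for the probe to a RefSeq table of mouse genes. The array holds 55681 probes, of which 42191 were well above background on at least 3 of the 15 arrays and were tested. All 5 member probes were well above background on all 15 arrays. Values are levels, that is the log2 of a probe's processed signal after the 75th percentile of its array was subtracted on that scale. Differences are on that log2 scale. The level of 1 probe cannot be read as higher or lower than that of another.

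The whole pancreas of male mice of the C57BL/6J strain was profiled on Agilent arrays, 1 array per animal. Wild type (WT) mice received saline (n = 4) or cerulein (n = 4), and transgenic (TG) mice received saline (n = 3) or cerulein (n = 4). All animals fasted for 18 h, received a single intraperitoneal injection of saline or of 50 µg/kg cerulein in saline, and were killed 3 h later, although the saline animals carry a time label of 0 h. Cerulein is an analogue of cholecystokinin that overstimulates acinar cells and elicits acute pancreatitis in rodents. The labels do not name the transgene or the promoter that drives it, while the series title ties the mice to betacellulin and its receptor ERBB4. On the probe for betacellulin the TG arrays were higher than the WT arrays by 0.55 after saline (limma adjusted p = 1.00) and by 0.49 after cerulein (adjusted p = 0.825), so this probe did not separate the genotypes. The age of the mice is not given in the sources used here, and the series text speaks of 4 animals per group.

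Signal on the 15 arrays had a 75th percentile of 152 to 529 intensity units, and the share of probes well above background ran from 54.9% to 76.1%. The arrays lay on 3 slides. Slides 1 and 3 held all 4 groups, and slide 2 held 2 WT and 1 TG cerulein arrays but no saline array, so the members' responses to cerulein are also given within slides 1 and 3 or with slide as a block, and list counts where the slide term changes them. All 15 acinar cell markers were well above background on every array. RNA came from the whole organ, in which fewer cells of a type and less RNA per cell cannot be told apart.

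Tristetraprolin, the protein of Zfp36, binds AU-rich elements of short-lived transcripts through a pair of CCCH zinc fingers and recruits the CCR4-NOT deadenylase, so that the poly(A) tail is removed and the transcript is degraded. Zfp36l1 and Zfp36l2 encode relatives with the same kind of zinc fingers. Regnase-1, the protein of Zc3h12a, is an endoribonuclease that cleaves stem-loops in the 3′ untranslated regions of inflammatory transcripts, and Zc3h12c encodes its relative Regnase-3. In immune cells, Zfp36 and Zc3h12a are known as genes induced by the stimuli whose transcripts they then limit, with tristetraprolin itself controlled by phosphorylation through the p38 kinase pathway and Regnase-1 by degradation.

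The upstream sequences of 3 members are printed because Zfp36 and Zc3h12a rose with cerulein in both genotypes while Zfp36l1 did not pass the test in either without a slide term. With slide as a block Zfp36l1 did pass in TG mice, as given below. The sequences are thus not those of genes that responded and a gene that did not. They are the 250 bases before the annotated start, from RefSeq on GRCm38.p6, all on the minus strand, and the positions are chr7:28379229-28379478 for Zfp36, chr4:125127882-125128131 for Zc3h12a and chr12:80113014-80113263 for Zfp36l1. Capitals mark letters that matched a searched motif on either strand.
Zfp36: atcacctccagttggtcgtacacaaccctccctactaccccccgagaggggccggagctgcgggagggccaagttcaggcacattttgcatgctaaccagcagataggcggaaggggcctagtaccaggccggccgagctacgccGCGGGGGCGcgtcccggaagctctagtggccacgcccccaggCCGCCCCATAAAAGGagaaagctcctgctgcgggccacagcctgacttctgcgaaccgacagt
Zc3h12a: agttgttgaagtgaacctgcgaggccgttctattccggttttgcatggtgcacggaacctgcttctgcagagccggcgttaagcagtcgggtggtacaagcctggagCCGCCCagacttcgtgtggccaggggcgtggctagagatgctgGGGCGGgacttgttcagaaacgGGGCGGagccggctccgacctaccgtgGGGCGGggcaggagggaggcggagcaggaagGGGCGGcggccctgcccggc
Zfp36l1: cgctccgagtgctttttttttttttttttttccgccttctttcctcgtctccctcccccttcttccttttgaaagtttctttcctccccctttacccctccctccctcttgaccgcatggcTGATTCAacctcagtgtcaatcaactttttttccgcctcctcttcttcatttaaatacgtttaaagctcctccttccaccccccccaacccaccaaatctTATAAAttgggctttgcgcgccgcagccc

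The motifs searched on both strands were the AP-1 site TGANTCA, the cyclic AMP response element TGACGTCA and its core TGACG, which lies within it, the EGR site GCGNGGGCG, the GC box GGGCGG, the TATA box TATAAA, the CArG box bound by serum response factor and the kappaB site. The Zfp36 window held an EGR match 105 to 97 bases before the start, a GC box 63 to 58 bases before it and a CArG box 58 to 49 bases before it, the last of which share 1 base. Among all 32851 windows of the RefSeq table, 4.7% held an EGR match, 32.7% a GC box and 1.47% a CArG box. The Zc3h12a window held 5 GC boxes, the nearest of them 20 to 15 bases before the start, and none of the other motifs. In the Zfp36l1 window there was an AP-1 match 129 to 123 bases before the start and a TATA box 29 to 24 bases before it, motifs found in 6.75% and 12.4% of windows. GC content was 64.8% for Zfp36, 66.4% for Zc3h12a and 48.4% for Zfp36l1. Zc3h12c has 2 windows in the table, 1 with a single GC box and 1 with a single TGACG core. Zfp36l2 has no window in the table. None of the 5 windows of the other 4 members held a kappaB match, which 3.9% of all windows did, or the full TGACGTCA, which 1.55% did. A match describes letters in this window and not a bound site, and a missing match says only that the letters are not in these bases.

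In WT mice cerulein raised the transcripts of both Zfp36 and Zc3h12a, and in TG mice it raised the same 2 genes. Zfp36 rose 8.32-fold in WT and 16.1-fold in TG pancreas, and Zc3h12a rose 6.07-fold and 7.87-fold. In the same fit, without a slide term, the mean differences of their relatives Zfp36l1, Zfp36l2 and Zc3h12c were at most 0.95 on the log2 scale. None of these passed the test in either genotype. In the WT comparison 2 of 5 members were called higher and none lower at a limma adjusted p below 0.05, against 4.05% of all probes called higher and 4.91% called lower. In the TG comparison again 2 of 5 were called higher, against 3.29% of probes higher and 2.61% lower.

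Zfp36 stood at -3.27, -2.37, -1.65 and -1.32 in the 4 WT saline pancreases and at 0.44, 1.71, -0.14 and 1.61 in the 4 WT cerulein pancreases. The lowest cerulein animal was thus above the highest saline animal, and 6.47% of all probes separated the WT groups in this direction and 8.08% in the other. The difference was 3.06 ± 0.48 SE (95% interval 2.03 to 4.09, limma adjusted p = 0.00118). In TG mice the level was -2.60, -2.70 and -2.48 after saline and 0.70, 1.37, 2.28 and 1.32 after cerulein. These groups were farther apart, and the TG saline values lay close together. The difference was 4.01 ± 0.52 (adjusted p = 0.000367). Within slides 1 and 3 Zfp36 was higher after cerulein by 3.72 and 3.49 in WT and by 3.64 and 4.87 in TG mice.

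Zc3h12a was the other gene that rose. In WT animals its level was -3.61, -2.93, -3.20 and -2.42 after saline and -0.62, 0.34, -0.87 and -0.61 after cerulein. All cerulein values lay above all saline values, and the difference was 2.60 ± 0.38 (95% interval 1.80 to 3.41, limma adjusted p = 0.00061). In TG animals the levels were -3.33, -3.45 and -2.48 after saline and 0.30, -0.45, 0.56 and -0.84 after cerulein. The TG groups did not overlap either, as was the case for 7.68% of probes in this direction and 11% in the other, and they differed by 2.98 ± 0.41 (adjusted p = 0.000562). Within slides 1 and 3 the differences were 3.00 and 3.19 in WT and 3.25 and 3.52 in TG mice.

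Zfp36 and Zc3h12a were dim after saline, with processed signals down to 24.5 and 16.4 intensity units, and the size of their fold depends on the background correction. With normexp correction of the median spot signal the WT differences were 2.01 for Zfp36 (limma adjusted p = 0.00196) and 1.23 for Zc3h12a (adjusted p = 0.00676), and the TG differences were 2.76 and 1.57. All 4 calls held under that correction, in the deposited table that the authors normalised between arrays (2.91 and 2.31 in WT, 3.77 and 2.65 in TG) and without any single array.

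**Figure D1:**
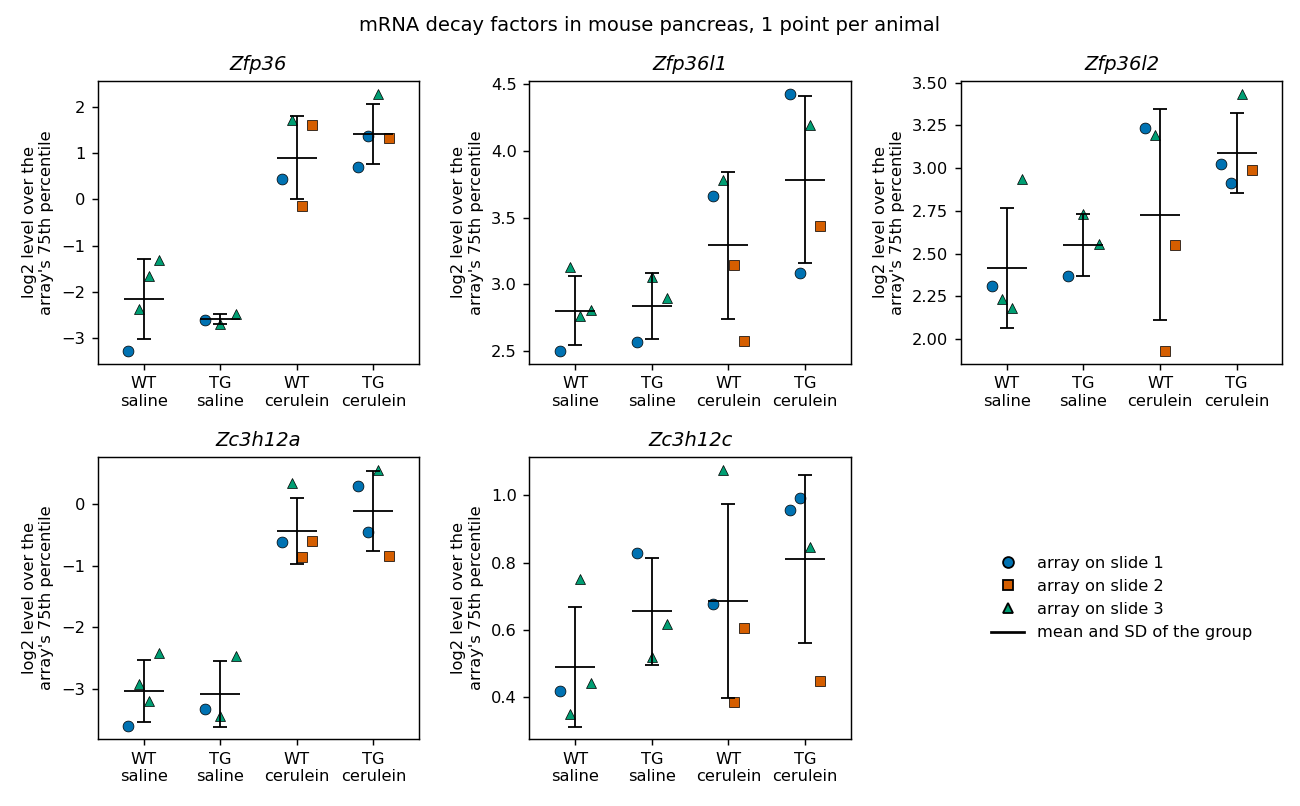
Level of each gene in each of the 15 animals (log2, relative to the 75th percentile of the array), by group, with the symbol giving the slide and bars the group mean and SD. Zfp36 and Zc3h12a lie higher in every cerulein animal than in every saline animal of both genotypes, while the Zfp36l1, Zfp36l2 and Zc3h12c ranges overlap in WT mice, and each panel has its own vertical scale.

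Zfp36l1, whose protein is known in blood cells for restraining proliferation, had levels of 2.50, 3.13, 2.76 and 2.81 in WT saline and of 3.66, 3.78, 3.15 and 2.57 in WT cerulein animals. Of the 4 cerulein values 3 were above every saline value, and the mean difference of 0.49 ± 0.33 did not pass the test (95% interval -0.21 to 1.19, limma adjusted p = 0.342). In TG mice the levels were 2.57, 3.05 and 2.89 after saline and 4.43, 3.09, 4.19 and 3.44 after cerulein. Here the ranges did not overlap, by the narrow step from 3.05 to 3.09. The TG difference was 0.95 ± 0.35 (95% interval 0.19 to 1.70), with an unadjusted p of 0.0172 and an adjusted p of 0.146. It passed the test with slide as a block, at 1.23 ± 0.28 (adjusted p = 0.0120), and with quantile normalisation, at 1.04 (adjusted p = 0.0399). With slide as a block the WT difference was 0.94 ± 0.29 (adjusted p = 0.0504). The 2 lowest WT cerulein values, 2.57 and 3.15, came from slide 2, and within slides 1 and 3 the WT difference was 1.16 and 0.88 and the TG difference 1.19 and 1.22.

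Zfp36l2 encodes the other relative of tristetraprolin measured here, known from its role in blood stem cells. Its levels were 2.31, 2.24, 2.18 and 2.94 in WT saline, and 3.23, 3.19, 1.93 and 2.55 in WT cerulein animals. The cerulein values spread on both sides of the saline range, with 2 above all saline values and 1 below them, and the difference was 0.31 ± 0.29 (95% interval -0.30 to 0.92, limma adjusted p = 0.485). In TG animals the levels of 2.37, 2.73 and 2.55 after saline all lay below the levels of 3.02, 2.91, 3.43 and 2.99 after cerulein. The TG difference of 0.54 ± 0.31 did not pass the test all the same (95% interval -0.12 to 1.20, adjusted p = 0.388). With slide as a block the differences were 0.69 in WT (adjusted p = 0.0985) and 0.77 in TG mice (adjusted p = 0.0565).

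Zc3h12c had levels between 0.35 and 1.08 on all 15 arrays. Its levels were 0.42, 0.35, 0.75 and 0.44 in WT saline, and 0.68, 1.08, 0.38 and 0.61 in WT cerulein animals. The ranges overlapped, with a difference of 0.20 ± 0.20 (95% interval -0.24 to 0.63, limma adjusted p = 0.537). In TG animals the levels were 0.83, 0.52 and 0.62 after saline and 0.96, 0.99, 0.85 and 0.45 after cerulein, of which 3 lay above all saline values and 1 below them. The TG difference was 0.16 ± 0.22 (95% interval -0.32 to 0.63, adjusted p = 0.755), so both intervals exclude differences of the size measured for Zc3h12a.

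**Figure D2:**
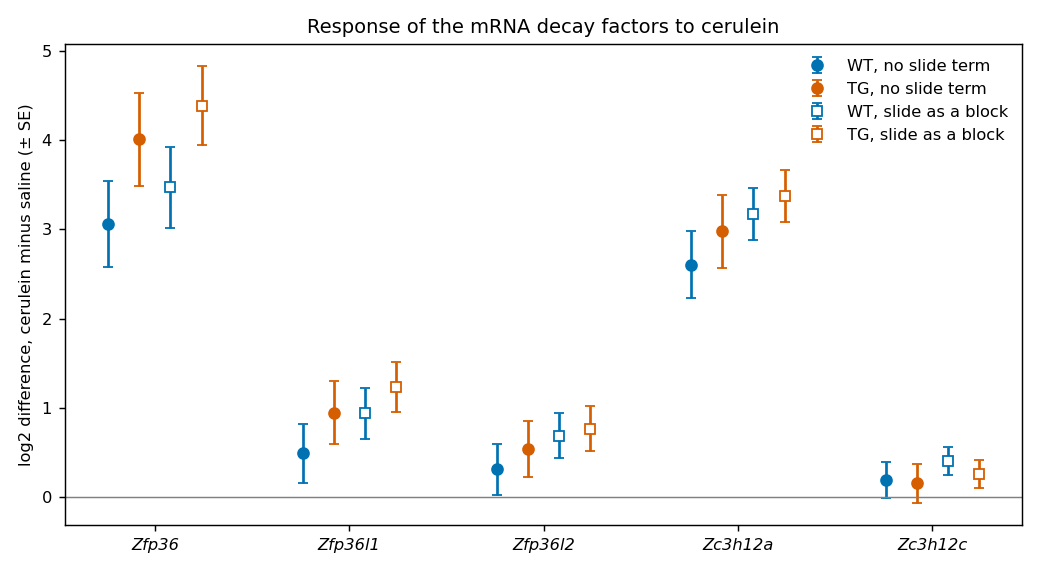
Cerulein minus saline difference (log2, vertical axis) of the 5 genes in WT and TG mice, with SE, from the fit without a slide term (filled circles) and with slide as a block (open squares). The Zfp36 and Zc3h12a differences lie between 2.60 and 4.38, and those of the relatives between 0.16 and 1.23 and higher with the slide block than without it.

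Pairs of members were also set against each other on the same array, where no scaling between arrays enters. The pairs were chosen after the levels were seen, so the values describe these animals and no test is given. Only the shift between treatments can be read, since 2 probes do not share a scale. The level of Zfp36 minus that of Zfp36l2 went from -4.57 ± 0.75 (SD, n = 4) to -1.82 ± 0.79 (n = 4) in WT mice and from -5.14 ± 0.25 (n = 3) to -1.67 ± 0.49 (n = 4) in TG mice. The same difference between Zc3h12a and Zc3h12c went from -3.53 ± 0.56 to -1.12 ± 0.26 in WT and from -3.74 ± 0.57 to -0.92 ± 0.54 in TG animals. For Zfp36 minus Zfp36l1 the shift was 2.57 in WT and 3.06 in TG mice. In these 3 pairs the cerulein and saline animals of a genotype did not overlap. For Zfp36 minus Zc3h12a the shift was 0.45 in WT and 1.03 in TG mice, with overlapping groups.

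**Figure D3:**
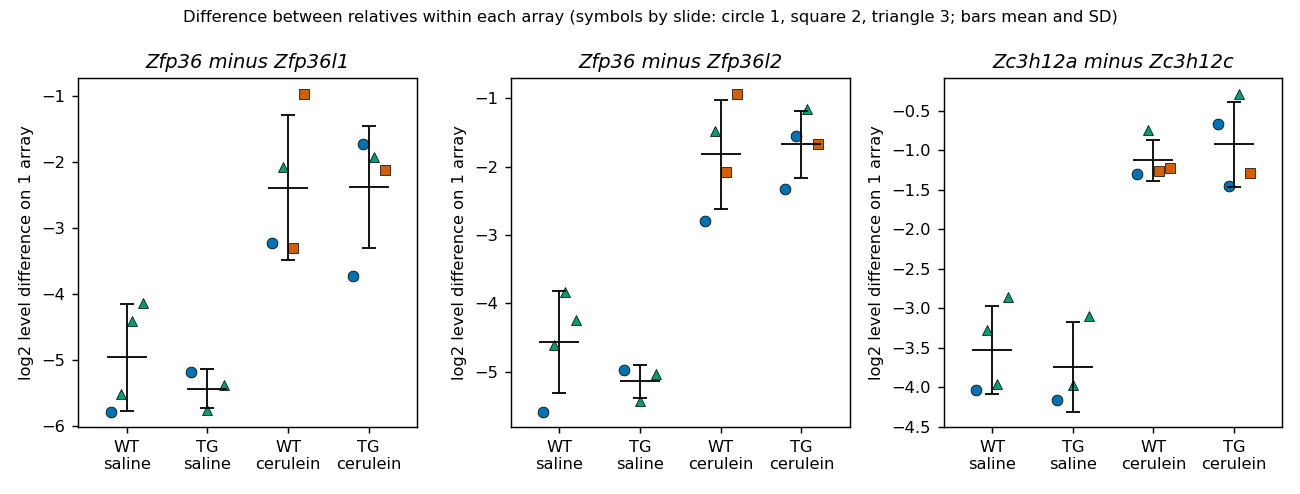
Difference between the levels of 2 relatives on the same array (log2, vertical axis), 1 point per animal, with symbols for the slide and bars for the mean and SD of each group. In all 3 pairs each cerulein animal lies above each saline animal of its genotype, for example from -1.29 to -0.73 against -4.03 to -2.86 for Zc3h12a minus Zc3h12c in WT mice.

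Genotype did not move any member past the threshold. After saline the TG minus WT difference was -0.44 ± 0.52 for Zfp36, 0.04 ± 0.35 for Zfp36l1, 0.13 ± 0.31 for Zfp36l2, -0.05 ± 0.41 for Zc3h12a and 0.16 ± 0.22 for Zc3h12c. All 5 had a limma adjusted p of 1.00, 0 had an unadjusted p below 0.05 and 0 separated the groups, against 0.0237% of probes called higher and 0% called lower. Over all probes 3.29% separated the TG from the WT saline animals upwards and 2.69% downwards. The Zfp36 difference was 0.67 within slide 1 and -0.81 within slide 3, so its direction differed between slides. After cerulein the TG mean was above the WT mean for all 5 members, by 0.51 ± 0.48 for Zfp36, 0.49 ± 0.33 for Zfp36l1, 0.36 ± 0.29 for Zfp36l2, 0.33 ± 0.38 for Zc3h12a and 0.12 ± 0.20 for Zc3h12c. Adjusted p-values were 0.79 to 0.883, 0 of 5 had an unadjusted p below 0.05, the groups overlapped for each gene, and 0.0593% of probes were called higher and 0% lower. Groups free of overlap were found for 0.997% of probes upwards and 1.46% downwards. For Zfp36 the difference was 0.59, 0.59 and 0.57 within slides 1, 2 and 3, and for Zfp36l1 0.10, 0.57 and 0.41. The direction differed between slides for Zfp36l2 (-0.26, 0.75 and 0.24), Zc3h12a (0.54, -0.10 and 0.22) and Zc3h12c (0.30, -0.05 and -0.23). The median difference of all genes was itself 0.10.

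Whether the response to cerulein differed between the genotypes was tested directly. For Zfp36 the TG response exceeded the WT response by 0.95 ± 0.71 (95% interval -0.56 to 2.47), and within slides 1 and 3 by -0.08 and 1.38. For Zfp36l1 it was 0.46 ± 0.48 (-0.57 to 1.48), for Zfp36l2 0.23 ± 0.42 (-0.67 to 1.13), for Zc3h12a 0.37 ± 0.55 (-0.81 to 1.56) and for Zc3h12c -0.04 ± 0.30 (-0.68 to 0.60). All 5 limma adjusted p-values were 1.00, 0 of the 5 unadjusted ones were below 0.05, and 0% of probes passed in either direction, while 396 of 42191 had an unadjusted p below 0.05. The intervals leave room for a response of Zfp36 in TG mice that is larger or smaller than in WT mice.

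By group means Zfp36 ordered as TG saline (-2.59 ± 0.11 SD), WT saline (-2.15 ± 0.87), WT cerulein (0.90 ± 0.90) and TG cerulein (1.42 ± 0.65). Zc3h12a had the same order, with -3.09 ± 0.53, -3.04 ± 0.50, -0.44 ± 0.53 and -0.11 ± 0.65. In both genes the step from saline to cerulein exceeded the spread, and the neighbours of the same treatment did not differ beyond it. Zfp36l1 (2.80 ± 0.26, 2.84 ± 0.25, 3.29 ± 0.55 and 3.79 ± 0.63) and Zfp36l2 (2.42 ± 0.35, 2.55 ± 0.18, 2.73 ± 0.62 and 3.09 ± 0.23) both ordered as WT saline, TG saline, WT cerulein and TG cerulein, with no step between neighbours beyond the spread. Zc3h12c followed as WT saline (0.49 ± 0.18), TG saline (0.65 ± 0.16), WT cerulein (0.69 ± 0.29) and TG cerulein (0.81 ± 0.25), again with overlapping neighbours.

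Among transcripts with AU-rich elements that are known targets of tristetraprolin, several rose after cerulein and none fell. Of 24 listed targets 22 were measured, each from its brightest probe, and in WT mice 9 were called higher and none lower, while 4.86% of all genes were called higher and 6.35% lower. The median WT difference of the list was 1.54, against -0.06 for all 17347 genes. In TG mice 11 of the 22 were called higher and none lower, against 4.29% and 2.72% of all genes, with a list median of 1.51 against -0.06. Many of these genes were dim after saline, and a gene that passed the filter through its cerulein arrays alone had to be higher there. Of the 10 targets that were well above background on all 15 arrays, 6 were called higher in WT and 7 in TG mice, and none lower. Plau, the urokinase gene, had a WT difference of -1.04 ± 0.31 (limma adjusted p = 0.0546) and was called lower in WT mice with normexp and with quantile normalisation, and it was named for that. With normexp background correction the counts were 9 higher and 1 lower in WT and 9 higher and none lower in TG mice. The list medians were then 0.10 and 0.26, against -0.24 for all probes in both genotypes. That reference takes all probes and not 1 per gene, and without normexp it was 0.05 in WT and -0.03 in TG mice. Without slide 2 the counts were 9 and 11 higher and none lower, and with slide as a block 10 and 12 higher and none lower. The block also raised the higher calls over all probes, as given below.

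Fos, a subunit of the AP-1 transcription factor, differed by 4.70 ± 0.75 in WT and 4.14 ± 0.81 in TG mice (limma adjusted p = 0.0013 and 0.00731). The neutrophil chemokine gene Cxcl1 was not well above background on any saline array and rose at least 9.69-fold in WT and 14.7-fold in TG mice (adjusted p = 6.69e-07 and 1.29e-06), counted from the lowest signal that was. Cdkn1a, which encodes the cell cycle inhibitor p21, rose by 3.45 ± 0.30 and 3.44 ± 0.33 on its brightest probe, whereas its other probe gave 0.27 and 0.58 and was not called. Ccl2, a chemokine for monocytes, rose by 3.33 ± 0.31 and 2.85 ± 0.33. Tnf, the classical target of tristetraprolin, had differences of 1.55 (adjusted p = 0.0807) and 1.22 (adjusted p = 0.258), and Ptgs2, which encodes an inducible cyclooxygenase, of 2.46 (adjusted p = 0.0818) and 2.56 (adjusted p = 0.122). Myc, a growth-promoting transcription factor, was called in TG mice at 1.39 ± 0.34 and not in WT mice at 0.90 ± 0.31, a difference between genotypes that did not pass the test. Tnf, Ptgs2 and Myc were named after their values were seen.

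Known Regnase-1 targets gave a mixed result. Of 19 listed, 16 were measured, and 7 of these also stand in the tristetraprolin list. In WT mice 5 were called higher and 1 lower, with a list median of 0.81, and in TG mice 5 were called higher and none lower, with a list median of 0.96. Over all genes 4.86% were called higher and 6.35% lower in WT and 4.29% and 2.72% in TG mice. Here too a gene that passed the filter through its cerulein arrays alone, as Cxcl1 and Rel did, had to be higher there. Of the 8 listed targets that were well above background on every array, 3 were called higher and 1 lower in WT mice. In TG mice 3 of these were called higher and none lower. The WT median was 0.55 with the dim genes at their lower bounds, 0.35 without slide 2 and 0.19 with slide as a block. The WT counts were 5 higher and 1 lower both without slide 2 and with the block. In TG mice 6 were higher and 1 lower with the block, which also raised the higher calls over all probes, as given below. With normexp background correction the counts were 4 higher and 1 lower in each genotype. The list medians turned to -0.01 and -0.11, against -0.24 for all probes in both genotypes under that correction. The largest rises were those of Cxcl1 and Ccl2, given above, and of Ier3, an early gene that affects cell survival, at 2.11 ± 0.28 in WT and 2.79 ± 0.31 in TG mice. Rel, an NF-kB subunit whose transcript Regnase-1 cleaves in lymphocytes, was not well above background on any saline array and rose at least 1.60-fold in WT and 2.12-fold in TG mice. Lcn2, an iron-sequestering acute phase protein, rose by 1.28 ± 0.26 and 1.08 ± 0.28, and Rel and Lcn2 were named after their values were seen. Tfrc, the transferrin receptor gene, fell in WT mice by 1.86 on its brightest probe, with -0.93 and -1.11 on its other probes, and differed by -1.16 in TG mice (limma adjusted p = 0.0878).

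**Figure D4:**
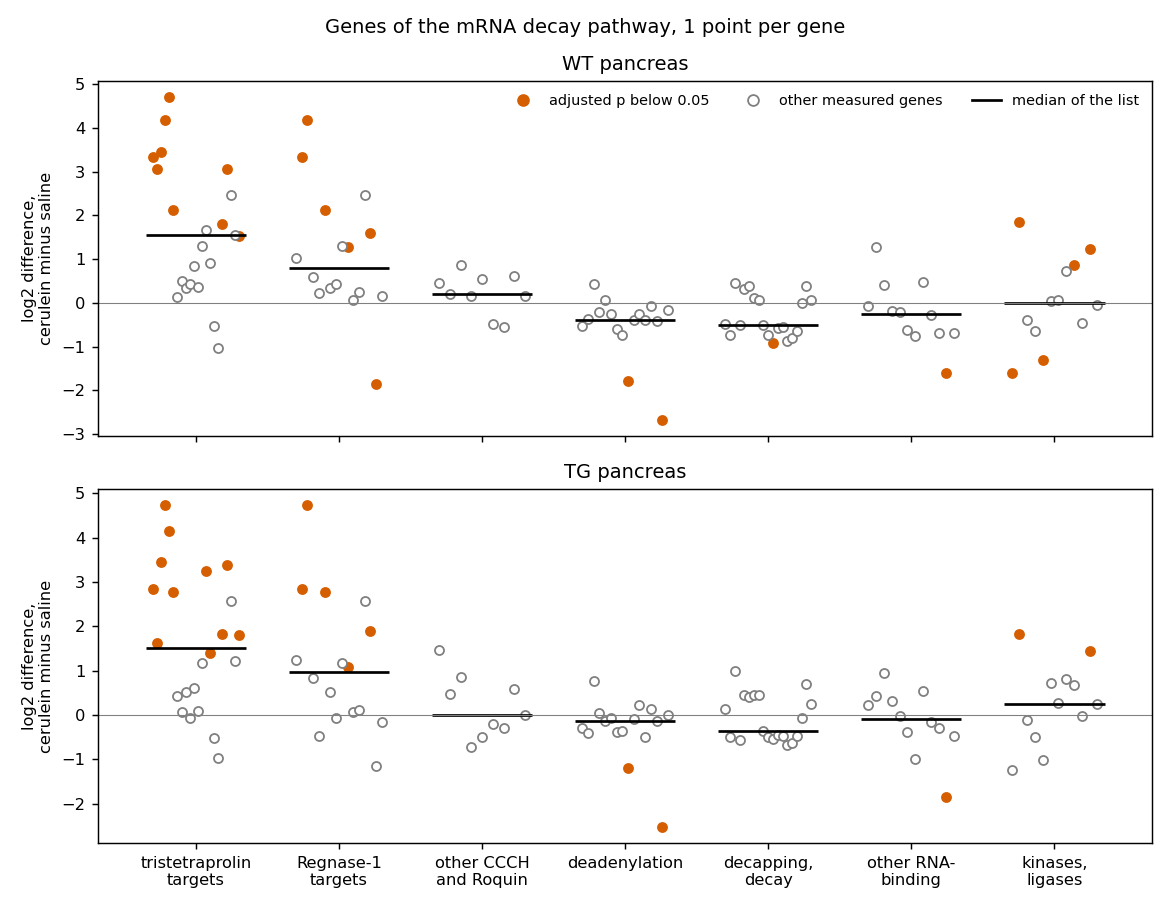
Cerulein minus saline difference (log2, vertical axis) of each measured gene of 7 lists around the decay factors, in WT and TG mice, with filled points for an adjusted p below 0.05 and a line at the list median. Points of the tristetraprolin and Regnase-1 target lists reach above 4, and the deadenylation and decapping lists lie mostly below 0 in WT mice.

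Few genes of the machinery that carries out decay were called. Of 16 deadenylation genes 0 rose and 2 fell in each genotype, with list medians of -0.39 in WT and -0.14 in TG mice, which turned to 0.01 and 0.03 with slide as a block, where 2 rose as well in TG mice. Over all genes 6.35% were called lower in WT and 2.72% in TG mice. Tob1, an antiproliferative adaptor that brings the CCR4-NOT complex to its targets, fell by 2.67 in WT (SE 0.33, limma adjusted p = 0.00017) and by 2.53 in TG mice (SE 0.35, adjusted p = 0.000661). Cnot8, a catalytic deadenylase subunit of that complex, fell by 1.79 and 1.20. Of 19 decapping and exonuclease genes only Lsm2, a subunit of the ring that binds deadenylated ends, was called in WT mice, at -0.92 on its brightest probe and 0.52 on its other probe. That count is near the 6.35% of all genes called lower, and 0 were called by limma in TG mice, where 4 had an unadjusted p below 0.05. With slide as a block this list had 4 genes called higher and 1 lower in WT, and 5 higher and 0 lower in TG mice, so its counts depend on the slide term. The block also raised the higher calls over all 42191 probes, to 3826 in WT and 4178 in TG mice. Without slide 2 Lsm2 was not called in WT mice. With normexp 4 genes were lower in WT mice, where the lower calls over all 42191 probes rose as well, from 2072 to 3859. The list medians were -0.50 and -0.37 without a slide term. With slide as a block they were -0.16 and -0.12, against -0.10 and -0.13 for all probes.

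Of 12 further RNA-binding proteins only Tia1, a translational repressor of stress granules, was called, lower by 1.60 ± 0.22 in WT and by 1.86 ± 0.24 in TG mice. With slide as a block this list held 2 higher and 1 lower in WT and 3 higher and 2 lower in TG mice, and its medians turned from -0.24 and -0.09 to 0.24 and 0.23. The block also raised the higher calls over all probes, as given above, while the shares here are from the fit without it. The count of 1 in WT mice is near the 6.35% of all genes called lower there, and in TG mice that share was 2.72%. The second Tia1 probe gave -1.80 and -1.32. Of 9 genes for other CCCH proteins of the Regnase and tristetraprolin families, Roquins and N4bp1, 0 were called by limma in either genotype (3 in WT and 2 in TG mice had an unadjusted p below 0.05). With slide as a block, which raised the higher calls over all probes as well, 3 were called higher in each genotype. The list medians were 0.20 and 0.00, and with normexp -0.18 and -0.04, against -0.24 for all probes in both genotypes. Among 12 kinases, phosphatases and ligases that act on tristetraprolin or Regnase-1, 3 rose and 2 fell in WT mice, and 2 rose and 0 fell in TG mice, against 4.86% of all genes higher and 6.35% lower in WT and 4.29% and 2.72% in TG mice. With slide as a block 3 rose and 1 fell in WT and 3 rose and 0 fell in TG mice. Dusp1, the phosphatase that inactivates p38, rose by 1.85 ± 0.23 and 1.82 ± 0.25, and Ppp2ca, the catalytic subunit of a phosphatase that acts on tristetraprolin, by 1.23 ± 0.27 and 1.44 ± 0.29. Mapkapk3, a kinase below p38, rose by 0.86 in WT mice. Btrc, part of a ubiquitin ligase known to bind Regnase-1, fell by 1.61 in WT mice on its brightest probe, with 0.73 on its other probe. Malt1, the protease that cleaves Regnase-1 in lymphocytes, differed by -1.31 in WT mice with an adjusted p of 0.0473 although its groups overlapped, and it was not called with slide as a block or without slide 2.

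Markers of leukocytes, which also express Zfp36 and Zc3h12a, moved with cerulein in part. Of 12 neutrophil markers 8 were measured. In WT mice 4 were called higher, S100a8, S100a9, Clec4d and Il1r2, and in TG mice Clec4d alone, with list medians of 1.24 and 0.46. Over all genes 4.86% were called higher and 6.35% lower in WT and 4.29% and 2.72% in TG mice. A count of 1 in marker lists this short is near these shares. The genotypes already differed after saline, where the TG minus WT median of the neutrophil list was 0.99. Of these 8 markers 5 had an unadjusted limma p below 0.05 there, all higher in TG mice, and 0 were called. Over all 42191 probes 1094 had such a p. On the WT saline arrays S100a8 and Clec4d were well above background on 1 of 4, S100a9 on 3 and Il1r2 on 0. On the TG saline arrays S100a8 and S100a9 were so on 3 of 3, Clec4d on 1 and Il1r2 on 0. Clec4d and Il1r2 thus passed the filter only with their cerulein arrays, while S100a8 and S100a9 met it on saline arrays alone. The 1 neutrophil marker above background on every array, Csf3r, was not called. With normexp 0 neutrophil markers were higher in either genotype and 1 was lower in TG mice (Cxcr2). The medians were then -0.26 and -0.11, against -0.24 for all probes in both genotypes. Without slide 2 there were 2 higher in WT and 0 in TG mice, and with slide as a block 4 and 1. The summed linear level of the measured neutrophil markers, in units of the array's 75th percentile, was 101 to 182 in WT saline, 77.1 to 181 in WT cerulein, 141 to 195 in TG saline and 87.6 to 188 in TG cerulein animals. A linear sum follows the brightest probes, so it says little about the markers that were dim after saline. Mmp8 was well above background on 0 arrays and Mmp9 and Ngp on 2 each. Of 11 measured macrophage and monocyte markers only Cd14 was called, at 1.36 in WT and 1.24 in TG mice, with list medians of -0.03 and -0.02 and summed levels of 92.7 to 133, 71.5 to 122, 98.4 to 128 and 65.7 to 114 in the same order of groups. In TG mice 2 were called higher with slide as a block, which also raised the higher calls over all probes, as given above. Of 10 lymphocyte markers 0 were called by limma, with 1 in WT and 2 in TG mice at an unadjusted p below 0.05, all of them lower. With slide as a block Cd3e and Nkg7 were called lower in TG mice, where the lower calls over all probes rose too. The part of these cells in the rise of Zfp36 and Zc3h12a was not tested. The summed acinar marker level was 21665 to 36463 in WT saline and 12753 to 28068 in WT cerulein animals. In the TG groups it was 19722 to 29267 and 10195 to 20365. The lowest cerulein sums of both genotypes came from slide 2, which held no saline array. The list medians of -0.81 in WT and -0.71 in TG mice became -0.25 and -0.37 with slide as a block. With quantile normalisation they were 0.00 and -0.05. Among the 15 markers Ptf1a was called higher and Rbpjl lower in both genotypes, and Rnase1 lower in WT mice. The part of acinar cells was not tested either.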

How the data were processed

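The fluorescence intensity values of the spots were read from the scans by the authors with the Agilent program Feature Extraction (version 10.7.3.1, per the submitters' processing notes), which subtracted background, per the file headers. The deposited flag columns (other: 0 or 1 per spot) mark spots well above background, saturated spots and outliers. A deposited value table gives log2 values after normalisation of the arrays by the authors, with the method not stated in the sources at hand. Set against the scanner values, its columns had r = 0.987 to 0.998 and no centring per gene, and it served only as an alternative.

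Control spots and outlier spots were left out, and 59305 spots per array were averaged to 55681 probes, of which 27235 were given 1 gene symbol from RefSeq (GRCm38.p6) by accession. No probe was saturated. Probes well above background on at least 3 arrays were fitted with limma 3.58.1 under R 4.3.3 as 4 group means over 15 arrays, with 11 residual and 3.26 prior degrees of freedom. Benjamini-Hochberg adjustment ran over all 42191 probes in each comparison, and tests were two-sided. The number of arrays sets the precision. The fit was tested on simulated data. Normexp on the median signals was added after the data were seen. The planned normexp setting needs mean spot signals, and the median spot signals in the scanner output were used instead.

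The members and the gene lists were chosen with earlier results of these data known. Named genes are the members, up to 3 called genes with the largest change per list, direction and cerulein response, and the 5 genes most like each member. Slide numbers were read from the scanner output. Alternatives were other backgrounds, scalings and filters, slide as a block or left out, array weights, 1 probe per gene and each array left out.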

Additional observations from a re-analysis of the deposited data

Results flagged for a closer look

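Zfp36l2 in WT saline replicate 8 had a level of 2.94, apart from the other 3 animals of its group (2.18 to 2.31). Its gap to the nearest of them took up 0.831 of the group's range, just over Dixon's value of 0.829. Of 15 groups of 4 looked at, chance sets apart about 1 in 20. Without that animal the WT cerulein difference of Zfp36l2 was 0.48 in place of 0.31 and still not called.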

How the results depend on the processing

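The calls of Zfp36 and Zc3h12a in both genotypes held in every setting that gave a test: normexp, quantile and median scaling, no filter or the strictest one, slide as a block, without slide 2, array weights, 1 probe per gene, the deposited values and each array left out. Leaving out single arrays gave 2.68 to 3.41 and 3.72 to 4.25 for Zfp36 and 2.34 to 2.81 and 2.75 to 3.28 for Zc3h12a in WT and TG mice. Zfp36l1 moved between 0.33 and 0.73 in WT and 0.73 and 1.18 in TG, Zfp36l2 between 0.14 and 0.58 and between 0.42 and 0.63, and Zc3h12c between 0.07 and 0.30 and between 0.09 and 0.28, with no new call. In TG mice Zfp36l1 passed the test with quantile scaling (1.04) and slide as a block (1.23), and Zc3h12c with array weights (0.36). Within slides the values that moved by more than the replicate spread were, in WT, Zfp36l1 1.16, Zfp36l2 0.92 and 0.74, Zc3h12a 3.19 and Zc3h12c 0.56, and in TG, Zfp36 4.87 and Zc3h12a 3.52. After saline the TG minus WT difference changed sign for Zfp36 within slide 1 (0.67) and for Zfp36l1 with median scaling (-0.00054) and array weights (-0.0100). It also did so for Zc3h12a within slide 1 (0.28) and with slide as a block (0.00804). After cerulein it changed sign for Zfp36l2 within slide 1 (-0.26) and without slide 2 (-0.0899). The same held for Zc3h12a within slide 2 (-0.10) and for Zc3h12c within slides 2 (-0.05) and 3 (-0.23). The difference of the responses changed sign for Zfp36 (-0.0792) and Zfp36l2 (-0.33) within slide 1, for Zfp36l2 without slide 2 (-0.225) and for Zc3h12c with median scaling (0.12) and array weights (0.22). Leaving out single arrays turned the saline difference of Zfp36l1 (-0.0692 to 0.173) and Zc3h12a (-0.35 to 0.16) and the response difference of Zfp36l2 (-0.0375 to 0.397) and Zc3h12c (-0.141 to 0.0898). None of these was called, and the cause was not tested.

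The median of all probes moved from 0.05 in WT and -0.03 in TG to -0.24 in both with normexp, to -0.145 in WT with median scaling and to -0.13 in TG with slide as a block. Counts of called probes, 1707 higher and 2072 lower in WT and 1388 and 1100 in TG, depended on the setting. Normexp gave 3859 lower in WT and 2152 in TG. Median scaling gave 808 and 1194 in WT, 642 and 334 in TG, and 6 and 13 higher in the saline and cerulein genotype comparisons in place of 10 and 25. Slide as a block gave 3826 higher in WT, 4178 and 2942 in TG, 20 higher after saline, 80 higher and 24 lower after cerulein and 1 higher response in TG. Without slide 2, 680 were lower in WT and 7 higher after cerulein. Array weights gave 7973 and 9946 in WT, 8576 and 10239 in TG, 313 and 162 after saline, 333 and 1525 after cerulein and 1 higher response. With 1 probe per gene, fewer features were tested, 977 were higher in WT and 829 and 591 in TG. After cerulein 1 probe was lower with quantile scaling, no filter, the strictest filter and 1 probe per gene. Leaving out single arrays gave 1172 to 2456 and 955 to 4841 in WT, 794 to 1354 and 308 to 1232 in TG, 5 to 9 higher after saline and 13 to 33 and 0 to 16 after cerulein. The WT count lower was 971, 955 and 1093 without saline replicates 6, 7 and 8, 4841 without cerulein replicate 10, and 1158 and 1069 without replicates 11 and 12. The TG counts were 794 and 308 without saline replicate 3 and 843 and 337 without replicate 4, and the count lower was 515 and 688 without cerulein replicates 14 and 16.

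No paired analysis was possible because the labels number all animals separately and the groups share no replicate number. The planned normexp setting on mean spot signals was not run. Zfp36 and Zc3h12a lie near background after saline, so their folds are less certain than their direction.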

Other observations

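The genes whose level ran most like that of a member over the 15 arrays are given as a description. The arrays share slides and fall into saline and cerulein groups, so a gene that rose with cerulein has a high Pearson correlation with any other that did. For Zc3h12a, among 17342 genes, they were Ppp1r15a (r = 0.981), a phosphatase subunit of the stress response, the transcription factor gene Mafk (0.980), Rnf19a (0.978), the kinase gene Plk3 (0.977), which also stands in the tristetraprolin target list, and Zfp655 (0.976). Their cerulein differences were 1.96 to 3.06 in WT and 1.95 to 3.38 in TG mice. For Zfp36 they were the tubulin gene Tuba1c (0.978), Nrbf2 (0.976), an autophagy factor, the heat shock protein gene Hspa4l (0.974), Mir17hg (0.973), the host of a microRNA cluster, and the cochaperone gene Dnajb2 (0.972). Hspa4l differed by 3.94 in WT and 4.34 in TG mice. The likeness was looser for Zfp36l2, led by Pkmyt1 (0.943) and Traf5 (0.938), for Zfp36l1, led by Myo1c (0.910) and Usp54 (0.906), and for Zc3h12c, led by Mob2 (0.834) and Anapc15 (0.824). None of the 5 genes most like Zfp36l1, Zfp36l2 or Zc3h12c differed by more than 1.02 in either cerulein response.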
